A study of Mus musculus with 18 samples.

Results

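The 33 genes described here are interferon-stimulated genes of the mouse, named as a list and matched by symbol in the gene column of all 18 libraries, with no threshold on a measured value. Of the 33, 32 were listed in at least 1 library and 27 in every library, among 14002 genes listed in any library and 10181 listed in all. Mx2 was not analysed here. Cells sense viral nucleic acids with receptors such as RIG-I and MDA5, and the interferon they then secrete acts through JAK kinases, STAT proteins and IRF9 on a response element in the promoters of these genes. The products block viral entry, translation and RNA, and several of them are sensors or transcription factors that feed the same pathway. Macrophages keep part of the programme on at a low level without infection.

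The study followed RAW264.7 cells, a mouse macrophage line, after addition of 4-thiouridine (4sU), a uridine analogue that is built into new RNA. After periodate treatment a 4sU is read as C, so a T-to-C conversion marks a read from RNA made during labelling. Experiment 1 had 6 lysates, at 0, 20, 40, 60, 90 and 120 min of 4sU, and experiment 2 had 3, at 20, 30 and 40 min. Each of the 9 lysates gave 1 library of cytoplasmic input RNA and 1 library of ribosome footprints, the RNase-protected fragments from monosomes, with 1 library per time, material and experiment. No group received interferon or another stimulus, and all cells were of the same line. Nothing in the labels says that lysates came from separate cultures, so p-values measure the spread between these libraries, which may be technical. Adjusted p-values in the text come from edgeR's quasi-likelihood test unless limma is named, with Benjamini-Hochberg adjustment over all genes tested, and values under 0.05 were called.

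Libraries held 6230562 to 7933796 reads in input of experiment 1, 26359243 to 48139330 in input of experiment 2, 11771175 to 23327760 in footprints of experiment 1 and 29065324 to 87536081 in footprints of experiment 2. Experiment 2 was therefore sequenced more deeply in both materials, and depth and experiment cannot be told apart. Summed markers of macrophages stood at 5853 to 8045 counts per 1000000 reads (CPM) in input, where the library total is multiplied by edgeR's TMM factor (0.804 to 1.16),, with reads for 9 of the 10 in every input library. Of 17 markers of other cell types 10 were not listed, and the summed level of the list was 0.118 to 0.685 CPM in input. In bulk lysates, fewer cells with a transcript and less transcript per cell cannot be told apart.

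Promoters are shown because many members moved together between the experiments. RefSeq windows of 300 bases (250 before and 50 after the start, GRCm38.p6) were at hand for 26 members. The core of the interferon-stimulated response element was searched as GAAA, any 2 bases and GAAA again, on both strands, and the core of the gamma-activated site as TTCNNNGAA, which reads the same on either strand. The first was found for 14 of the 26 members, against 3.99% of all 27025 genes, and in 15 of their 33 windows, against 3.44% of all 32851 windows. The second was found for 6 of the 26 members, against 9.55% of all genes, and in 6 of their 33 windows, against 8.30% of all windows. The 150 bases before the start follow for 4 members that were called higher in experiment 2 in both materials (Isg15, Bst2, Oas1a and Oas3) and for 2 that were not (Oas1g and Irf1), with both motifs in capitals.
Isg15: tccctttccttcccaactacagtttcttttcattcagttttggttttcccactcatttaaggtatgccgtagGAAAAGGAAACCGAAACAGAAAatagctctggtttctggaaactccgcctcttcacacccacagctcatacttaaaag
Bst2: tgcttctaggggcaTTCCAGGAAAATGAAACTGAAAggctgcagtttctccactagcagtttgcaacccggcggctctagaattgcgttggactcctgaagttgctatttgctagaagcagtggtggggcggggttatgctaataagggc
Oas1a: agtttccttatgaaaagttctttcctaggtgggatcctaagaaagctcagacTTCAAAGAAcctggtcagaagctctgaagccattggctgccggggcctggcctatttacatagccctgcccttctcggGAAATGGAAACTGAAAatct
Oas3: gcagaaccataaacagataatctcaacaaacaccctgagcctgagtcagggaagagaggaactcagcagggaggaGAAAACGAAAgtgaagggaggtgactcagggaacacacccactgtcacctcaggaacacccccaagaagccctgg
Oas1g: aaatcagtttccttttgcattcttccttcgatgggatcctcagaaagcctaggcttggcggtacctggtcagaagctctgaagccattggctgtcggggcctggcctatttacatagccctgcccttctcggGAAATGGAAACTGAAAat
Irf1: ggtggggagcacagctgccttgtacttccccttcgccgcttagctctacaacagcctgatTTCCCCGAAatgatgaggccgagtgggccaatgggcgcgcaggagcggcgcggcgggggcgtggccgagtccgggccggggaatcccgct
The windows lie at chr4:156200819-156200968 for Isg15, chr8:71537473-71537622 for Bst2, chr5:120907526-120907675 for Oas1a, chr5:120777660-120777809 for Oas3, chr5:120887614-120887763 for Oas1g and chr11:53769864-53770013 for Irf1. Irf1 is on the plus strand and the other 5 genes are on the minus strand.

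Isg15 carried 3 overlapping matches of the response element core, between 78 and 57 bases before its start. Oas1a and Oas1g, neighbours on chromosome 5, carried the same pair of overlapping matches, first met 20 and 18 bases before the start. Bst2 held a gamma-activated site core that runs into its pair of response element cores, from 136 bases before the start, and the Irf1 window held a gamma-activated site core and no response element core. Among 20 tested input members with a window, 6 of the 10 with a response element core were called higher in experiment 2, and 6 of the 10 without one. In footprints these counts were 6 of 11 with and 6 of 12 without. A match is a description of letters and no site was measured.

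Most members were low. Per kilobase of annotated exon (GENCODE, GRCm38), the 27 members with enough reads for the comparison of materials had a median input level of 1.83 CPM per kb, against 6.73 over all genes tested, and 4 of the 27 lay above that median of all genes. Bst2, the membrane protein tetherin that holds budding virus at the cell surface, was the highest at a median of 35.5 CPM per kb (27.6 to 46.1, n = 9 input libraries). Ifi35, Oas1a and Oasl1 followed at 11.1, 10.7 and 8.03 CPM per kb. Their ranges overlapped for Ifi35 (8.72 to 12.4) and Oas1a (9.03 to 15.3), so neither stood above the other beyond the spread. Trim25, the ubiquitin ligase that acts with RIG-I, had a median of 4.99 CPM per kb and a range from 2.82 to 15.8.

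Some members that are classic markers of a strong interferon response were near 0. Others were not, such as Ifit2 and Usp18 with means of 7.67 and 5.23 CPM over the 9 input libraries. Mx1, a GTPase that traps influenza particles, had at most 6 reads in any input library and 2 in any footprint library. Gbp2 had no read in the 6 input libraries of experiment 1 and at most 8 in experiment 2. Ifit3 had at most 10 input reads, Isg20, an RNA exonuclease, at most 26, and Rsad2, the antiviral enzyme viperin, at most 58. Isg15, the ubiquitin-like modifier, reached 0.274 to 0.95 CPM in input of experiment 1, or 2 to 7 reads, and such counts give little precision. Below, "tested" means past edgeR's filter on low counts, and members that pass it through one group alone are the higher ones there by selection.

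**Figure D1:**
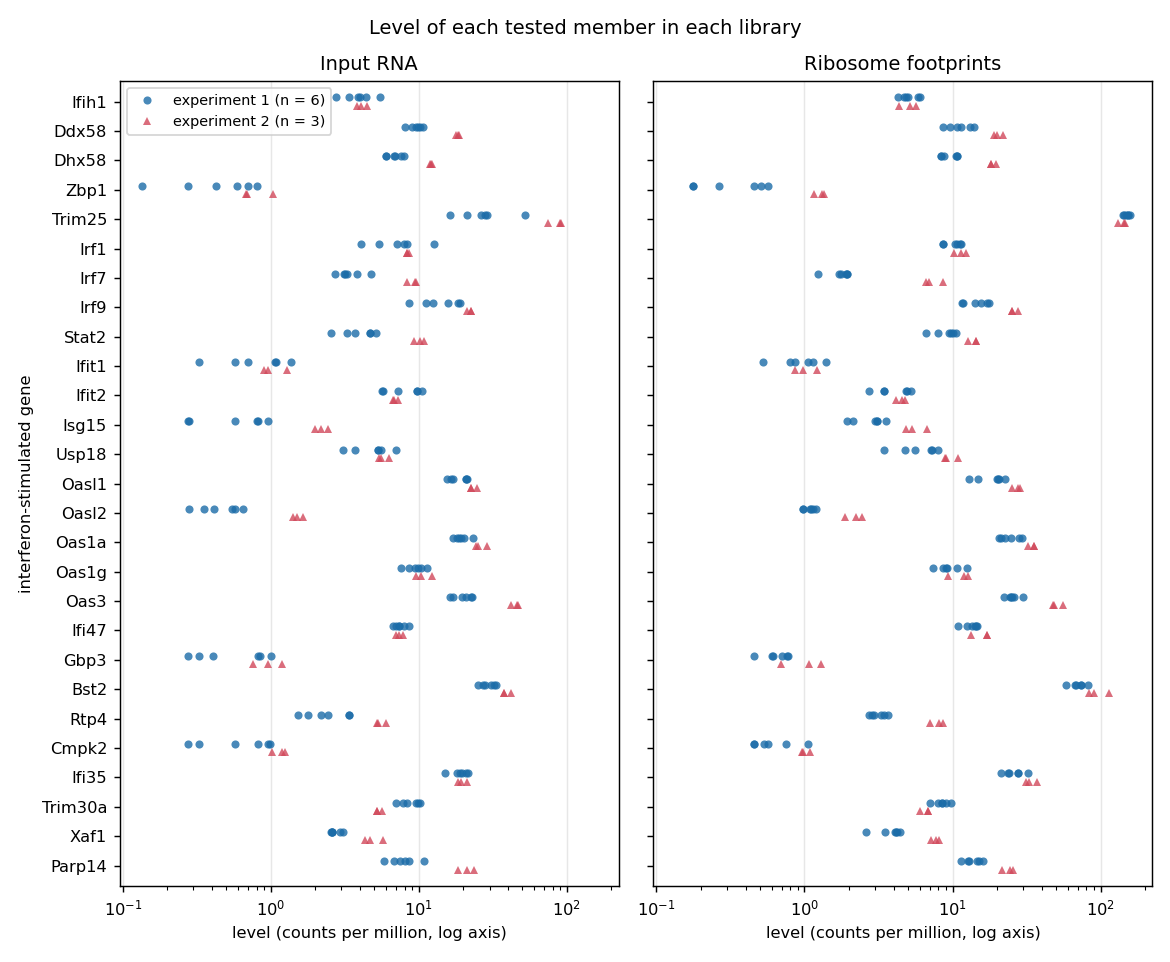
Level of the 27 members tested between materials, in CPM on a log axis, with 1 point per library (experiment 1, n = 6 and experiment 2, n = 3 in each panel). Bst2 and Trim25 are the highest in footprints, and the points of experiment 2 lie to the right for Irf7, Oas3, Rtp4 and Dhx58 in both panels.

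The members lie partly in clusters, which matters for reads shared by copies. Ifit1, Ifit2 and Ifit3 lie between positions 34550694 and 34650009 of chromosome 19, Oas1a, Oas1g and Oas3 between 120753098 and 120907521 of chromosome 5, and Oasl1 and Oasl2 between 114896936 and 114937915 of chromosome 5. The Oas1a and Oas1g promoter windows, which lie mostly before the start, were identical at 207 of 298 aligned bases (69.5%). The likeness of their transcripts was not measured. Reads that fit both genes could be assigned to either, and how many do is not known, so their separate values are uncertain. The annotation places another gene across 12 members, among them Irf7 (Phrf1), Irf9 (Rnf31), Rtp4 (Masp1), Ifi47 (Olfr56), Dhx58 (Dhx58os), Irf1 (Gm17334) and Usp18 (Gm44148), and the sources used here do not say how reads there were assigned.

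The clearest pattern across the libraries was a higher level in experiment 2, at matched hours of 4sU in the fit. In input 15 of 24 tested members were higher, where 25.2% of all 9927 genes were, and 1 was lower, where 25.7% of all genes were. Isg15 and Oasl2 are among these 15. They had 2 to 7 and 2 to 4 input reads in experiment 1 and passed the filter through experiment 2, so selection favoured their calls. In footprints 16 of 28 tested members were higher, where 8.52% of all 10226 genes were, and none was lower, where 6.16% were. Zbp1 is among these 16. It had 2 to 11 footprint reads in experiment 1 and passed the filter mainly through experiment 2, so selection favoured its call. The members' median log2 difference was 0.53 in input and 0.60 in footprints, against -0.02 and 0.00 over all genes. Of the 28 footprint members 22 had an unadjusted p under 0.05, and DESeq2's Wald test called 1 lower. The depth of the libraries moved with the experiment. After experiment 2 was thinned to the depth of experiment 1, an alternative added once results were known, 14 of 23 members were called higher in input. There 4512 of all 9912 genes were called in either direction.

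Each of the 15 input members called higher had all 3 libraries of experiment 2 above all 6 of experiment 1, which held for 16% of all genes tested in input, and the reverse held for 1 member (26.1% of genes). In footprints 16 members had experiment 2 wholly above experiment 1 (9.02% of genes) and Trim30a, a TRIM protein that limits NF-kB signalling, wholly below (7.95% of genes). Summed macrophage markers were 5853 to 8045 CPM in input of experiment 1 and 6110 to 6446 CPM in experiment 2, so the sums overlapped. Of the 9 tested macrophage markers, 5 were called higher and 2 lower in input of experiment 2, and 3 higher and 1 lower in footprints, and their part in the members' difference was not tested. The markers of other cell types summed to at most 0.685 CPM in every input library.

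The RNA sensors divided. Ddx58, which encodes RIG-I, had 8.12, 9.76 and 10.7 CPM as the lowest, median and highest input value of experiment 1 and 18.6, 17.8 and 18.5 CPM in experiment 2 at 20, 30 and 40 min. The groups did not overlap, and the log2 difference was 0.97 ± 0.10 (SE, adjusted p = 9.90e-05). Dhx58, which encodes the RIG-I relative LGP2, had 5.97, 6.88 and 7.94 CPM in input of experiment 1 against 11.8, 12.2 and 12.0 CPM, again apart, a log2 difference of 0.87 ± 0.12 (adjusted p = 0.000329). Its footprints stood at 8.34, 9.68 and 10.7 CPM against 18.1, 18.3 and 19.7 CPM, a difference of 1.07 ± 0.10 (adjusted p = 2.80e-05). Ifih1, which encodes the third receptor of the family, MDA5, had overlapping groups, with log2 differences of 0.00 ± 0.16 in input and -0.04 ± 0.15 in footprints (adjusted p = 0.996 and 0.905). Zbp1, a sensor of Z-form nucleic acid, was tested in footprints only and was 1.77 ± 0.31 higher (log2, adjusted p = 0.00227), from 0.175 to 0.571 CPM in experiment 1 to 1.35, 1.17 and 1.31 CPM. The values of experiment 1 rest on 2 to 11 reads per library, and selection by the filter favoured this call.

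Among the transcription factors, Irf7 moved most. Irf7, the factor that amplifies interferon alpha production, had 2.71, 3.20 and 4.78 CPM as lowest, median and highest input value in experiment 1 and 8.29, 9.46 and 9.56 CPM in experiment 2. Its footprints had 1.24, 1.85 and 1.93 CPM against 6.96, 6.61 and 8.65 CPM. No value of experiment 2 fell into the range of experiment 1 in either material. The log2 differences were 1.36 ± 0.15 in input and 2.05 ± 0.16 in footprints (adjusted p = 0.000125 and 5.80e-06). Irf9, the DNA-binding partner of STAT2, differed by 0.50 ± 0.09 and 0.72 ± 0.09 (adjusted p = 0.00169 and 0.000318). Stat2 had 2.56 to 5.16 CPM in input of experiment 1 and 10.8, 10.2 and 9.29 CPM in experiment 2, a log2 difference of 1.27 ± 0.16 (adjusted p = 0.000258), and 0.51 ± 0.11 in footprints (adjusted p = 0.00839). Irf1, which is also induced by interferon gamma, had input values of 4.06 to 12.6 CPM in experiment 1 that enclosed the 8.54, 8.28 and 8.37 CPM of experiment 2, with a log2 difference of -0.01 ± 0.16 (adjusted p = 0.972).

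Of the oligoadenylate synthetase family, which makes the activator of RNase L, and Isg20, 4 of 5 tested members rose in input (25.2% of all genes) and 4 of 6 in footprints (8.52%). Oas3 had 16.1, 20.3 and 22.9 CPM as lowest, median and highest input value of experiment 1 and 45.7, 46.6 and 41.7 CPM in experiment 2, a log2 difference of 1.20 ± 0.12 (adjusted p = 7.49e-05). In footprints it had 22.4 to 29.8 CPM against 48.5, 47.6 and 56.0 CPM, a difference of 1.00 ± 0.10 (adjusted p = 5.28e-05). Oas3 was thus clear of overlap in both materials. Oas1a differed by 0.56 ± 0.09 and 0.61 ± 0.10 (log2, adjusted p = 0.000746 and 0.00147), while Oas1g, its neighbour with the same pair of promoter matches, differed by 0.18 ± 0.14 and 0.37 ± 0.15 (adjusted p = 0.285 and 0.113). In the 20 and 40 min libraries with time as a replicate block the Oas1g footprints were called higher (0.47, adjusted p = 0.00519). That setting called 3389 of 10211 footprint genes in either direction, against 1501 of 10226 in the main fit. The difference between the neighbours was not tested. Oasl1 differed by 0.27 ± 0.08 and 0.45 ± 0.13 (adjusted p = 0.0215 and 0.0332), with the input call lost without lysate 1 or 8 and, at 0.18 (adjusted p = 0.296), in the 20 and 40 min libraries with time as a replicate block, and the footprint call without lysate 1, 2, 5, 7 or 9. Oasl2 rose by 1.84 ± 0.27 in input from 0.281 to 0.649 CPM, which is 2 reads in the poorest library, and by 0.98 ± 0.18 in footprints (adjusted p = 0.000516 and 0.00257).

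Effectors of other kinds followed in part. Rtp4, a receptor chaperone that restricts flaviviruses, had 1.53 to 3.39 CPM in input of experiment 1 and 5.23, 5.98 and 5.29 CPM in experiment 2, and 2.73 to 3.64 CPM in footprints against 7.08, 8.69 and 8.07 CPM. Neither material overlapped, and the log2 differences were 1.06 ± 0.17 and 1.29 ± 0.13 (adjusted p = 0.000707 and 4.68e-05). Parp14, an ADP-ribosyltransferase, had 5.84 to 10.8 CPM in input of experiment 1 and 23.5, 21.2 and 18.4 CPM in experiment 2 (1.44 ± 0.16, adjusted p = 0.000155), with 0.72 ± 0.10 in footprints (adjusted p = 0.000625). Xaf1, a pro-apoptotic zinc-finger protein, differed by 0.88 ± 0.16 and 1.00 ± 0.15, and Bst2 by 0.47 ± 0.10 and 0.48 ± 0.12 (adjusted p from 0.000907 to 0.0162). In footprints the call of Bst2 was lost without lysate 7 (0.35), that of Ifi35 (0.47) without lysate 1 or 9, and that of Stat2 without lysate 1. Trim30a was the member called lower in input, at 5.60, 5.18 and 5.22 CPM against 6.98 to 10.1 CPM in experiment 1 (-0.73 ± 0.12, adjusted p = 0.000985), with -0.35 ± 0.12 in footprints (adjusted p = 0.0784).

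The IFIT family of RNA-binding proteins gave no call between the experiments among its 2 tested members, and Ifit3 was not tested. Ifit2 had 5.62 to 10.5 CPM in input of experiment 1 around the 6.79, 7.21 and 6.70 CPM of experiment 2, with log2 differences of -0.32 ± 0.15 and 0.00 ± 0.15 (adjusted p = 0.0983 and 0.992). Ifit1, at 0.325 to 1.37 CPM in input, differed by 0.29 ± 0.34 and -0.06 ± 0.24 (adjusted p = 0.497 and 0.906). Ifi47, an interferon-gamma-induced GTPase, differed by 0.03 ± 0.12 and 0.25 ± 0.13 (adjusted p = 0.859 and 0.225). These intervals do not show that the experiments were alike for these genes. Isg15 rose by 1.92 ± 0.30 in input, from the few reads given above to 66 to 109, and by 1.05 ± 0.20 in footprints, from 1.93 to 3.55 CPM to 5.30, 4.88 and 6.72 CPM (adjusted p = 0.000712 and 0.00359). Usp18, the protease that removes Isg15 from proteins, differed by 0.07 ± 0.14 and 0.54 ± 0.17 (adjusted p = 0.691 and 0.0548). In the 20 and 40 min libraries with time as a replicate block 19 of 28 footprint members were called higher. Among them were Usp18 (0.63, adjusted p = 0.000238) and Ifi47 (0.33, adjusted p = 0.0307). That setting called 3389 of 10211 footprint genes in either direction, against 1501 of 10226 in the main fit. Isg20, the guanylate-binding protein Gbp3 and Cmpk2, a mitochondrial nucleotide kinase, were tested in footprints only, with log2 differences of 0.84 ± 0.30, 0.60 ± 0.25 and 0.66 ± 0.26 (adjusted p = 0.0838, 0.132 and 0.107).

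**Figure D2:**
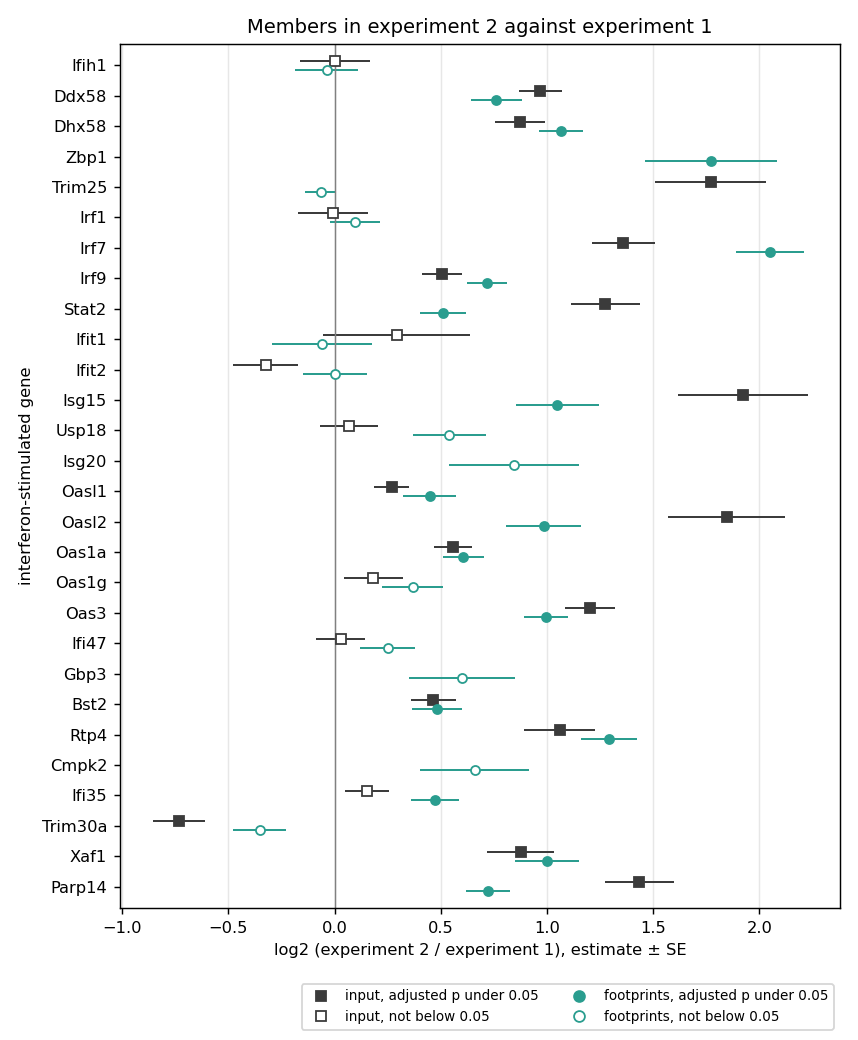
Log2 difference of experiment 2 against experiment 1 for each tested member (estimate ± SE from the edgeR fit with hours of 4sU as a covariate, 9 libraries per material), squares for input and circles for footprints, filled where the adjusted p was under 0.05. Irf7 is the farthest right in footprints at 2.05, and Trim25 is at 1.77 in input and -0.07 in footprints.

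Whether the difference between experiments was the same in both materials was tested by the product of material and experiment over all 18 libraries, a fit added once results were known. Of 29 tested members 1 had a larger difference in footprints (12.5% of all 10592 genes) and 3 a smaller one (11% of genes). Irf7 was the larger, by 0.73 ± 0.23 (log2, adjusted p = 0.0268). The smaller were Trim25 at -1.79 ± 0.28, Stat2 at -0.72 ± 0.19 and Parp14 at -0.67 ± 0.20 (adjusted p = 0.000779, 0.0123 and 0.0202). Trim25 input values were 28.1, 21, 16.2, 28.7, 52.5 and 26.5 CPM at 0, 20, 40, 60, 90 and 120 min in experiment 1 and 91.1, 90.3 and 74.5 CPM in experiment 2. Its footprints lay at 143 to 158 CPM in experiment 1 and at 132, 147 and 143 CPM in experiment 2, so input parted the experiments and footprints did not. The call of Irf7 was lost without lysate 1, 2, 7 or 9 (0.62 to 0.71), that of Stat2 without lysate 1, 7 or 8 (-0.73 to -0.66) and that of Parp14 without lysate 1, 2, 3, 7 or 8 (-0.71 to -0.52).

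Compared with input, members were more often called higher than lower in footprints. Of 27 tested members 13 were higher, where 35.8% of all 10110 genes were, and 1 was lower, where 40.4% were. Isg15 and Oasl2 are among these 13. They had 2 to 7 and 2 to 4 input reads in experiment 1 and passed the filter through their footprints, so selection favoured their calls. The median log2 ratio of footprint to input was 0.36 for the members and -0.04 over all genes. Footprints count ribosomes on an mRNA and input counts its fragments, both scaled to their own library, so a ratio above 0 is relative to the typical gene. With lysate as a replicate block, which pairs the materials of 1 lysate, Oas3, Parp14 and Rtp4 were also called higher (log2 0.29, 0.55 and 0.45, adjusted p = 0.00826, 0.00158 and 0.00296) and Irf7 was called lower (-0.64, adjusted p = 0.000858), and no call was lost.

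Bst2 had input values of 30.7, 32.0, 24.9, 27.3, 28.1 and 33.1 CPM in lysates 1 to 6 and 37.7, 41.7 and 37.4 CPM in lysates 7 to 9. Its footprint values were 74.3, 68.6, 58.7, 67.5, 73.5 and 81.7 CPM, then 114, 84.1 and 90.8 CPM. Every footprint value exceeded every input value, and the log2 ratio was 1.28 ± 0.12 (adjusted p = 9.25e-08). Trim25 had the largest ratio, 1.69 ± 0.30 (adjusted p = 0.000119), with 9 of 9 lysates above 0 and a span from 0.53 to 3.15, the 3 lowest being those of experiment 2. Isg15, with 2 to 7 input reads in experiment 1, had a ratio of 1.58 ± 0.27 (adjusted p = 7.55e-05), from 0.88 to 2.21 by lysate. Ifi47 stood at 6.69 to 8.55 CPM in input with a median of 7.32 and at 10.8 to 17.1 CPM in footprints with a median of 14.3, groups without overlap, a ratio of 0.93 ± 0.09 (adjusted p = 1.47e-07).

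Stat2 had 2.56, 4.71 and 10.8 CPM as lowest, median and highest input value over the 9 lysates and 6.59, 10.0 and 14.5 CPM in footprints. The ranges overlapped, but the ratio was above 0 in 9 of 9 lysates, at 0.80 ± 0.21 (log2, adjusted p = 0.00284). Ifi35, an IFN-induced leucine-zipper protein, had 15.1, 19.2 and 21.4 CPM in input and 21.3, 27.9 and 37.4 CPM in footprints, a ratio of 0.59 ± 0.09 (adjusted p = 4.31e-05) with 9 of 9 lysates above 0. Irf1 had 4.06, 8.28 and 12.6 CPM against 8.63, 10.7 and 12.3 CPM, a ratio of 0.45 ± 0.11 (adjusted p = 0.00192) that was positive in 8 of 9 lysates. Smaller ratios were called for Oasl2 (0.67), Dhx58 (0.52), Xaf1 (0.51), Usp18 (0.48), Oas1a (0.36) and Ifih1 (0.33), with adjusted p from 0.00738 to 0.0295. Oasl2 was not called without lysate 1 or 4, Dhx58 and Xaf1 not without lysate 8, and Ifih1 and Usp18 not in experiment 1 alone (0.35 and 0.27).

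Ifit2 was the member called lower. Its input values were 10.5, 7.19, 9.69, 9.65, 5.62 and 5.68 CPM in lysates 1 to 6 and 6.79, 7.21 and 6.70 CPM in lysates 7 to 9, and its footprint values were 4.82, 5.24, 4.90, 2.75, 3.46 and 3.46 CPM, then 4.55, 4.78 and 4.18 CPM. All 9 footprint values lay below all 9 input values, and the log2 ratio was -0.82 ± 0.13 (adjusted p = 4.35e-05). Ifit1, from the same cluster, had a ratio of 0.08 ± 0.22 (adjusted p = 0.748), and whether the pair differed was not tested. Irf7 lay below 0 in 9 of 9 lysates, with -0.63 ± 0.33 and adjusted p = 0.0946 in the unpaired fit.

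**Figure D3:**
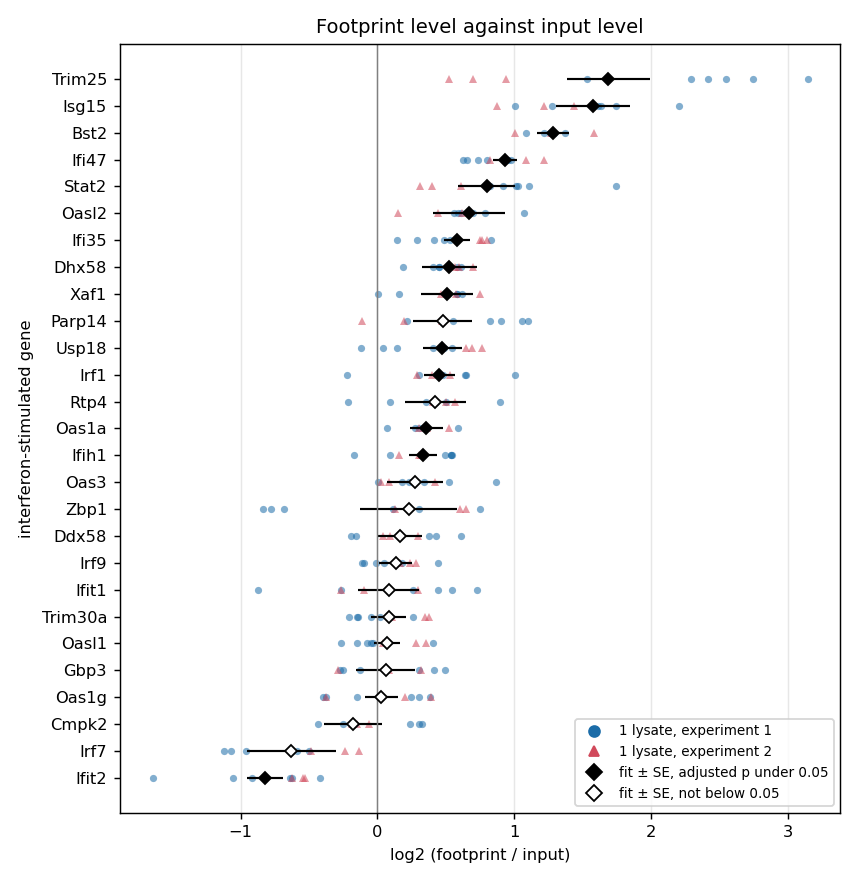
Log2 ratio of footprint to input for the 27 tested members, with 1 small point per lysate (circles for experiment 1, triangles for experiment 2) and the edgeR estimate ± SE as a diamond, filled where the adjusted p was under 0.05. Trim25, Isg15 and Bst2 are at the top with 1.69, 1.58 and 1.28, and Ifit2 is lowest at -0.82.

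With time in 4sU, few members changed in level. In input, 0 of 24 tested members rose (0.403% of all 9927 genes did) and 3 fell (5.83% of genes did), namely Irf9, Usp18 and Irf1. Of the 24, 5 had an unadjusted p under 0.05, and DESeq2's Wald test called 0 higher and 3 lower. Irf9 had 18.8, 18.5, 15.7, 12.5, 11.1 and 8.60 CPM at 0, 20, 40, 60, 90 and 120 min in experiment 1, a fall at every step, and 21.2, 22.4 and 22.6 CPM at 20, 30 and 40 min in experiment 2. Its slope was -0.72 ± 0.16 log2 units per hour over both experiments (adjusted p = 0.0314) and -0.57 in experiment 1 alone (also called). Usp18 had 7.03, 5.56, 5.27, 5.29, 3.70 and 3.08 CPM in experiment 1, a slope of -0.54 ± 0.13 (adjusted p = 0.0383). Irf1 had 8.30, 12.6, 7.12, 7.88, 5.34 and 4.06 CPM, highest at 20 min and lowest at 120 min, a slope of -0.64 ± 0.16 (adjusted p = 0.0426).

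These calls rested on few lysates. Without lysate 4, 5, 6 or 7 none of the 3 was called lower, and in experiment 1 alone Usp18 and Irf1 kept slopes of -0.54 and -0.63 with adjusted p = 0.0650 and 0.0742. Calls fell over all genes too. In either direction 372, 16, 0 and 352 genes were called without lysate 4, 5, 6 and 7, against 619 in the main fit. Experiment 2, which holds 20 to 40 min, was higher for many members, and the members' median slope in input was -0.36 per hour without and -0.03 with the experiment as a replicate block, against -0.02 and 0.02 over all genes. Irf9, Usp18 and Irf1 were called with that block too, at -0.56, -0.49 and -0.62 per hour.

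In footprints, 0 of 28 tested members rose (7.03% of all 10226 genes did) and 1 fell (13.4% did). Of the 28, 7 had an unadjusted p under 0.05, and DESeq2's Wald test called 0 higher and 4 lower. The member that fell was Oasl1, at 20.2, 20.0, 20.5, 22.8, 14.8 and 12.9 CPM over the 6 times of experiment 1 and 27.5, 25.4 and 28.8 CPM in experiment 2, with a slope of -0.47 ± 0.15 per hour (log2, adjusted p = 0.0469). The 90 and 120 min values were the lowest of the 9. The call was lost without lysate 3, 5, 6, 7 or 8 and in experiment 1 alone (-0.33, adjusted p = 0.0603). With the experiment as a block Irf9 and Stat2 were called lower as well (-0.33 and -0.31 per hour, adjusted p = 0.0135 and 0.0389). The ratio of footprint to input changed with hours for 0 of 29 tested members in either direction (0% of all 10592 genes). Of the 29, 1 had an unadjusted p under 0.05, and DESeq2's Wald test called none.

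**Figure D4:**
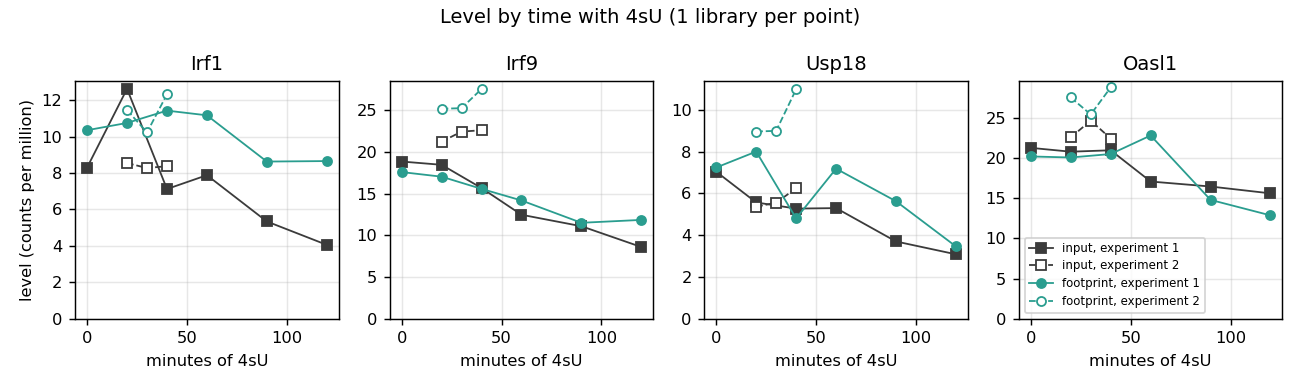
Level in CPM against minutes of 4sU for Irf1, Irf9, Usp18 and Oasl1, with 1 library per point, solid lines for experiment 1 and dashed lines for experiment 2. Irf9 input goes from 18.8 to 8.60 in experiment 1, while its values in experiment 2 are 21.2 to 22.6.

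New RNA was measured as the share of a gene's reads with at least 1 T-to-C conversion, for the 21 members that averaged 50 reads or more over the labelled input libraries. Over all genes the share in input of experiment 1 was 0.289% without 4sU and 8.07% after 120 min. Relative to the median gene of the same library, 10 of 21 members were labelled more (31.0% of all 9362 genes were) and 3 less (32.4% of genes were), by limma on log2 odds. The members' median was 0.46, against -0.04 over all genes, but it turned to -0.27 over the 11 members with a mean of at least 200 reads and to -0.09 with the unlabelled share subtracted (-0.06 and -0.11 over all genes). Where a library's share is at or below the unlabelled one, that subtraction leaves no converted reads and the pseudocount sets the value. The T content of reads also enters this share: the members had 4.97 (Bst2) to 8.32 (Ifi47) T positions per input read among those tested, with a median over all genes of 6.52.

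The most labelled members included transcription factors. Irf1 had 0 of 59 converted input reads without 4sU, then 5 of 93, 18 of 50, 21 of 67, 18 of 39 and 15 of 25 at 20, 40, 60, 90 and 120 min in experiment 1. The last is 60.0% (95% Wilson interval 40.7% to 76.6%), and the other labelled shares were 5.38%, 36.0%, 31.3% and 46.2%. In experiment 2 the shares were 2.14%, 7.82% and 16.5% at 20, 30 and 40 min, from 255 to 467 reads. Its log2 odds lay 3.40 ± 0.26 above the library median (limma, adjusted p = 1.22e-06), with all 8 labelled libraries above it. Irf9 reached 49.1% at 120 min (26 of 53 reads, interval 36.1% to 62.1%) from 0.746% without 4sU, at 2.15 ± 0.26 (limma, adjusted p = 3.88e-05). Both are among the members whose input level fell with time. Stat2 lay 0.93 ± 0.23 above (limma, adjusted p = 0.00374) and Irf7 at -0.51 ± 0.42 (limma, adjusted p = 0.294).

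Rtp4 had 0 of 24 converted input reads without 4sU, 8 of 16 at 90 min and 7 of 11 at 120 min, the latter 63.6% with an interval of 35.4% to 84.8%. In experiment 2, with 161 to 286 reads, its shares were 3.15%, 7.84% and 13%. Its odds lay 3.0 ± 0.29 above the median (limma, adjusted p = 6.37e-06). Oasl1 rose from 0.662% without 4sU to 43.8% at 120 min (42 of 96 reads), at 1.76 ± 0.23 (limma, adjusted p = 6.62e-05), and Ifi47 from 0% to 22.4% (11 of 49 reads), at 1.66 ± 0.35 (limma, adjusted p = 0.00160). Ifit2, Xaf1 and Parp14 lay 1.08, 0.86 and 0.85 above the median. Parp14 had 2 of 57 converted input reads without 4sU (3.51%, interval 0.968% to 11.9%) and lay at -1.20 once the unlabelled share was subtracted. That unlabelled share exceeded its 0% at 20 min in experiment 1 and its 1.25%, 2.21% and 1.78% in experiment 2. For these libraries the subtraction left no converted reads, and the pseudocount set the value. At low depth the pseudocount also enters the odds of the main fit, as for Xaf1 at 20 min in experiment 1. There 0 of 19 reads were converted and the value was 1.66.

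Bst2 and Oas1a were at the other end. Bst2 had 2 converted of 218 input reads without 4sU (0.917%), 1 of 236, 0 of 175, 3 of 232, 2 of 205 and 5 of 204 (2.45%) at the 5 later times, and 0.194% to 0.482% in experiment 2 from 1140 to 2059 reads. Its log2 odds relative to the library median were -1.66 ± 0.26 (limma, adjusted p = 0.000251), below 0 in 8 of 8 libraries, and its reads held 4.97 T positions on average, near the 5th percentile of all genes (4.89). Oas1a had 1 of 121 reads converted without 4sU and 4 of 144 (2.78%) at 120 min, at -1.10 ± 0.20 (limma, adjusted p = 0.000729), with 6.93 T positions per read. The corresponding share over all genes at 120 min was 8.07%. Dhx58 was called lower at -0.61 ± 0.22 (limma, adjusted p = 0.0297), a call lost without lysate 3, 4, 7, 8 or 9 and a sign that changed under other settings.

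Several members had converted reads without 4sU, among them Parp14 (2 of 57 input reads) and Irf7 (2 of 44 footprint reads). Trim25 had the largest unlabelled input share among the members read for conversion. In the unlabelled input library 12 of 200 reads (6.0%, interval 3.47% to 10.2%) were converted, against 0.289% over all genes, and in unlabelled footprints 87 of 3477 (2.50%, interval 2.03% to 3.08%), against 0.298%. Its input share rose to 25.2% at 120 min (41 of 163 reads). It lay 2.36 ± 0.22 above the library median (limma, adjusted p = 6.01e-06), and at -0.22 (limma, adjusted p = 0.781) once the unlabelled share was subtracted. In experiment 2 its shares of 5.54%, 7.11% and 6.48% stayed near the unlabelled 6.0%. The first fell below it, so the subtraction left no converted reads and the pseudocount set the value. At 60, 90 and 120 min its shares of 12.7%, 20.1% and 25.2% lay above the unlabelled interval. What the reads converted without 4sU are was not tested.

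**Figure D5:**
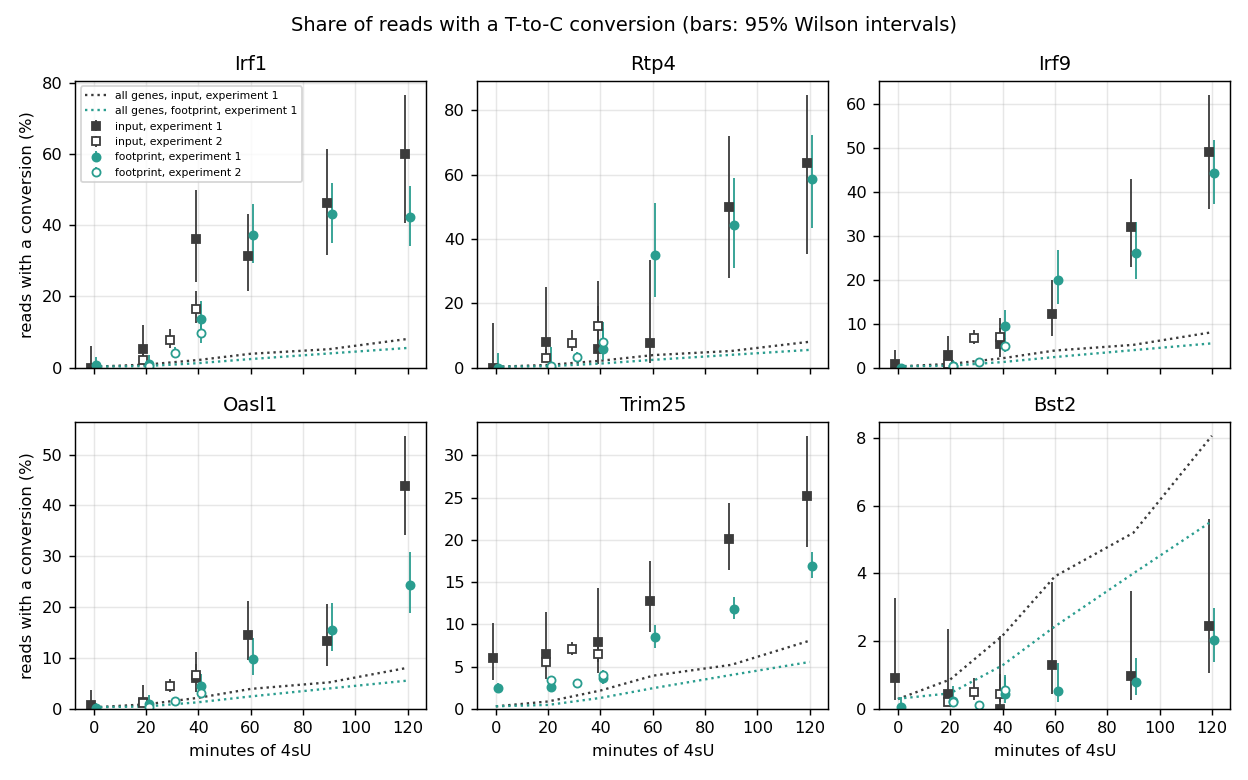
Percentage of reads with a T-to-C conversion against minutes of 4sU for 6 members, squares for input and circles for footprints, filled for experiment 1 and open for experiment 2, bars being 95% Wilson intervals and dotted lines the share over all genes of experiment 1. Irf1, Rtp4, Irf9 and Oasl1 climb to 60.0%, 63.6%, 49.1% and 43.8% in input at 120 min, Trim25 starts at 6.0% and Bst2 stays below the dotted lines from 40 min on. Vertical scales differ between the panels.

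Converted reads were scarcer in footprints than in input. Of 22 tested members 0 were higher (0.117% of all 9431 genes were) and 7 lower (52.7% of genes were), by edgeR's design for converted and unconverted reads over the 16 labelled libraries. Of the 22, 10 had an unadjusted p under 0.05, and limma with a larger pseudocount called 0 higher and 17 lower. That setting called 5516 of all 9431 genes in either direction. The median log2 difference of the odds was -0.89 for the members and -0.78 over all genes. The 7 were Ifi35 (-1.44 ± 0.43), Parp14 (-1.31 ± 0.40), Ifi47 (-1.29 ± 0.39), Oas3 (-0.95 ± 0.39), Trim25 (-0.93 ± 0.24), Oasl1 (-0.91 ± 0.31) and Irf1 (-0.87 ± 0.33), with adjusted p from 0.000513 to 0.0331. Relative to the library median, limma called none of them, with 0.02 for Oasl1 and -0.67 to -0.05 for the other 6. In that setting 74 of all 9431 genes were called in either direction. For Trim25 the share was lower in footprints than in input without 4sU too, at 2.50% against 6.0%.

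For Irf1 the footprint shares were 0.966%, 13.7%, 37.3%, 43.2% and 42.3% at 20, 40, 60, 90 and 120 min in experiment 1 (126 to 226 reads), below the input share at 20, 40, 90 and 120 min and above it at 60 min. In experiment 2 they were 0.611%, 4.23% and 9.73%, below input at each time. Rtp4 footprints reached 58.5% at 120 min (24 of 41 reads) and Irf9 footprints 44.4% (79 of 178 reads), with differences of -0.80 ± 0.41 and -0.64 ± 0.32 (adjusted p = 0.0823 and 0.0760). Parp14 footprints were at 0.324% to 2.06% up to 90 min and 5.26% at 120 min, against 22.2% in input (8 of 36 reads). In experiment 1 alone 3 of the 7 were called, Ifi47, Parp14 and Trim25, and the calls of Irf1 and Oas3 were also lost without single lysates (3 or 7, and 7, 8 or 9).

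The rest of the pathway was read from 4 lists written from general knowledge: ligands and receptors, signalling, induction, and other interferon-induced genes, 91 genes in all. Between the experiments 31 of 77 tested were higher and 13 lower in input (25.2% and 25.7% of all genes were), and 17 of 78 higher and 4 lower in footprints (8.52% and 6.16%), with median log2 differences of 0.19 and 0.05. Socs3, a feedback inhibitor of JAK signalling, had the largest difference among those named, 1.90 in input and 2.57 in footprints (adjusted p = 0.000181 and 4.17e-05). Ifitm3, which blocks viral fusion, rose by 0.97 in input and Slfn5 by 1.83, while Psmb8, a subunit of the immunoproteasome, fell by 0.60 there. Of the 4 tested receptors and ligands 2 fell in input.

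Footprints exceeded input for 37 of the 78 tested pathway genes and fell short for 16, where 35.8% and 40.4% of all genes did. Traf3, Nlrc5, Jak2 and Ifngr2 had log2 ratios of -3.14, -2.65, -2.33 and -1.97, all lower than any member's. With hours of 4sU, 5 of 77 fell in input, a share near the 5.83% of all genes, among them Pias1 (-0.79 per hour), Znfx1 (-0.73), Irf8 (-0.47) and Ifngr2 (-0.30). In footprints 2 of 78 rose and 10 fell, where 7.03% and 13.4% of all genes did. In labelling, 26 of 72 lay above the library median and 18 below (31.0% and 32.4% of all genes did), with Socs3 at 4.02 and Slfn2, a regulator of immune cell quiescence, at 3.11 above it (limma, adjusted p = 2.37e-07 and 3.76e-08). Conversion was lower in footprints for 44 of 73, where it was for 52.7% of all genes, with Parp12 at -1.63 and Tbk1, the kinase that activates IRF3, at -1.34.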

How the data were processed

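Deposited by the authors were raw counts of reads per gene and library, in columns by T positions in a read (0 to 20) and T-to-C conversions (0 to 3). That reading was inferred from the headings, and 0 reads broke it by having more conversions than T. The submitters' processing notes name Bowtie 0.12.8 and the build mm10. The sources used here do not name the counting program or annotation. Per the labels' protocols, input was alkali-fragmented and footprints came from RNase I digestion, both at fragment sizes typical of footprints, and part of each lysate was the input. Reads were summed per gene and given per 1000000 of the TMM-adjusted library total (CPM).

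Fits used edgeR 4.0.16 (TMM, filterByExpr) and limma 3.58.1 in R 4.3.3. Footprints against input had labelling time as a factor, slopes used hours of 4sU, and the experiment comparison had hours as covariate. Conversion fits needed an average of 50 reads or more per library and used a pseudocount of 0.5 for log odds. SEs are approximate, from the F statistic. All tests were two-sided, and a call was an adjusted p under 0.05. Fits were tested on simulated data. Alternatives were DESeq2 1.42.0, other filters, pseudocounts and conversion measures, blocks, experiment 1 alone and leaving out each lysate. Added once results were known were the product of experiment and material and the thinning of experiment 2. The rule gave values by lysate for up to 8 called members of smallest adjusted p per comparison. Other members got a fold or range. Up to 4 other pathway genes were named per comparison, by smallest adjusted p over the 4 lists together. Where values by library stand for further members, these were chosen after their values were seen. The members and lists were chosen with earlier results of these data known. Libraries of 1 lysate correlated at 0.112 to 0.741 across genes after removal of material means, and 4 of 9 correlated best with their own partner, the pairing coming from the protocol. Intervals cover counting error only.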

Additional observations from a re-analysis of the deposited data

Results flagged for a closer look

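The difference between the experiments itself differed between footprints and input for 4 members, by the test of the product of material and experiment. The log2 difference of footprints minus input was 0.73 for Irf7, -0.67 for Parp14, -0.72 for Stat2 and -1.79 for Trim25. None of the 54 groups of 9 libraries held a sample far from the others by Dixon's criterion, which flags about 5% of groups by chance. Each group joined 6 libraries of experiment 1 and 3 of experiment 2. Where the experiments lay apart, the wider range could hide a single aberrant library, so the criterion cannot exclude one.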

How the results depend on the processing

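Counts of called members that kept within 1.5 times are not listed. Footprints against input gave 2 lower members in experiment 1 alone and 2 with lysate as a replicate block, and 16 higher with that block, and leaving out a lysate gave 11 to 15 higher and 1 to 2 lower. Falling input members numbered 1 without the low-count filter and 1 in experiment 1 alone, and 0 to 3 by lysate left out. Falling footprint members numbered 2 with DESeq2 size factors, 4 by DESeq2's Wald test, 3 with the experiment as a replicate block and 0 to 5 by lysate left out. The ratio with hours gave 0 throughout, also by lysate left out. Members higher in experiment 2 numbered 14 to 15 in input and 13 to 18 in footprints by lysate left out, and those lower 1 to 2 and 0 to 1, with 1 lower footprint member by DESeq2's Wald test. Labelling at a mean of at least 200 reads left 11 members tested and 4 above the median, and by lysate left out 10 to 11 were above and 2 to 4 below. Lower conversion in footprints was called for 0 members by limma relative to the library median, 17 with a pseudocount of 2 and 3 in experiment 1 alone, and 5 to 9 by lysate left out. Over all genes the first 3 settings called 74 of 9431, 5516 of 9431 and 1947 of 8688 in either direction, against 4983 of 9431 in the main fit. The difference between experiments across materials gave 0 higher at 20 and 40 min only, and 0 to 2 higher and 1 to 3 lower by lysate left out. Values that changed sign were Dhx58 labelling (0.0593 with a pseudocount of 2, 0.56 for at least 2 conversions), Parp14 and Trim25 labelling with the unlabelled share subtracted (-1.20 and -0.22) and Oasl1 conversion in footprints relative to the library median (0.0206). The cause of these changes was not tested, apart from the smaller number of genes or libraries. Of 1013 alternative values of called members, 924 kept direction and call, 84 lost the call and 5 changed sign. Input depth in experiment 1 limits Isg15, Oasl2 and all members near 0, and footprint depth there limits Zbp1.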
